A study of Mus musculus with 10 samples.

Results

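Myelin genes were described here as a set of 8 named genes, Mbp, Mag, Mog, Mobp, Mal, Cnp, Opalin and Myrf, chosen by symbol among the 33502 gene symbols of a single-nucleus RNA-sequencing series from the mouse paraventricular thalamus and the regions around it. The series held 20503 nuclei in 10 libraries, all from C57BL/6J mice 12 weeks old with no further treatment in the labels, each library made from the pooled tissue punches of several mice. Labels named 6 libraries as female and gave no sex for the other 4. The deposited nucleus table called every nucleus of those 4 male, and they are called male libraries below. Libraries held 875 to 7213 nuclei and 5119927 to 55956635 UMIs (unique molecular identifiers, 1 per captured RNA molecule).

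Oligodendrocytes wrap axons in myelin, a multilayered membrane rich in lipid and in a small number of very abundant proteins. They arise from oligodendrocyte precursor cells (OPCs), which persist in the adult brain, divide, and carry the PDGF receptor Pdgfra and the proteoglycan Cspg4. On differentiation a precursor leaves the cycle, passes through a short committed stage marked by Bmp4, Enpp6 and Gpr17, and then switches on the genes of the myelin sheath. Mbp, the basic protein that holds the inner faces of compact myelin together, and Mobp, another basic protein of compact myelin, form the structural group. Mag, Mog and Opalin are membrane proteins with extracellular domains, Mag on the face next to the axon and Mog on the outer surface of the sheath. Mal is a proteolipid of lipid-rich membrane domains that also serves membrane sorting in epithelia, and Cnp is an enzyme of the non-compact cytoplasmic channels. Myrf, a transcription factor cleaved from the membrane, drives the other genes. Each gene is counted near its 3′ end, so CPM levels were compared between cell types for 1 gene at a time. Folds, shares of nuclei and percents of summed UMIs are listed for several genes below, and give no order of expression between them.

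RefSeq promoters (build GRCm38.p6) were held for 6 of the 8 genes, Mal, Mag, Mobp, Cnp, Mog and Opalin. The 250 bases upstream of the start are shown for the 3 genes in which the letters of the Myrf motif occurred, and for Mal, the oligodendrocyte marker used by the study, in which neither motif occurred. Letters in capitals are CTGGCAC or CTGGTAC (Myrf) and ACAAAG or ACAATG (Sox factors), on either strand, and no marked stretch of one kind overlapped one of the other. Each line runs 5′ to 3′ on the strand of the gene.
Mag, chr7:30914864-30915113, minus strand: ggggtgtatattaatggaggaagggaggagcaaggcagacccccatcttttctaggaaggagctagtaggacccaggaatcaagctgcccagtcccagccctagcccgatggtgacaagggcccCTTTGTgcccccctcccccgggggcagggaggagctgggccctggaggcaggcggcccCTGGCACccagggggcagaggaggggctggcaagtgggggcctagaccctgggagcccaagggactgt
Cnp, chr11:100574689-100574938, plus strand: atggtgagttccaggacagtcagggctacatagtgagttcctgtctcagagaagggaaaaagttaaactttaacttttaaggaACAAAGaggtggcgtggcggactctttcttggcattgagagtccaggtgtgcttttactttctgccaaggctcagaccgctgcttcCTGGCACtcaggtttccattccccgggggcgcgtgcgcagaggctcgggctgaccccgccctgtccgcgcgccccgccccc
Mog, chr17:37023399-37023648, minus strand: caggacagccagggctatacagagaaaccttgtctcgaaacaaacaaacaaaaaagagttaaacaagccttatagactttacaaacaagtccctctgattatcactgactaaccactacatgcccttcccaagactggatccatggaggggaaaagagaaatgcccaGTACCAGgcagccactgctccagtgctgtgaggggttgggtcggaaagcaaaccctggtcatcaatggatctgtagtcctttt
Mal, chr2:127656696-127656945, minus strand: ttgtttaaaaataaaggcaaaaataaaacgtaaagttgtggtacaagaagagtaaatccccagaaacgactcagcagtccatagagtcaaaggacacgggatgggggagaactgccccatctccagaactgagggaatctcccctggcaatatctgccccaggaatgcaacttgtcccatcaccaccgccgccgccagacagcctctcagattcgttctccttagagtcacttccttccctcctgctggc
The 6 genes had 8 promoters, Mag having more than 1, so the counts by gene below are not on the scale of the shares by promoter. Myrf letters stood in at least 1 promoter of 3 of the 6 genes, and in 5.93% of all 32851 promoters of this length. Sox letters stood in at least 1 promoter of 4 of the 6 genes, Mag, Mobp, Cnp and Opalin, and in 25.2% of all promoters. The Myrf letters lay 68 bases before the start in the Mag promoter shown and 9 in another Mag promoter. They lay 81 bases before it in Cnp and 83, on the opposite strand, in Mog. These are matches of letters, and a promoter without them says nothing about the factor.

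The cell types were those of the deposited annotation. Of the nuclei, 2462 were oligodendrocytes and 473 OPCs, with medians of 2321 and 3658 UMIs per nucleus. Each of the 30 marker genes checked had its highest mean level in the type that it marks. The types came from clustering these same nuclei, and the paper named them with some of these markers. The check is thus a description and no separate support for the names. Marker sums of other types inside the oligodendrocytes ranged from 0.0503% (endothelial) to 14.6% (neuronal) of their level in their own type, and inside the OPCs from 0.0337% (endothelial) to 21% (neuronal), and the part of other cells' RNA in these nuclei was not tested. Counts of the 13 mitochondrial genes were at 0 in all male libraries and totalled 562659 UMIs in the female ones, and 92 nuclei, 18 of them oligodendrocytes or OPCs, shared a barcode with a nucleus of another library. Sex, depth, the list of genes counted and the handling of the groups of libraries cannot be told apart.

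In oligodendrocytes the 8 genes gave 78553 UMIs, 81.5% of all their UMIs in the series, and 2461 of 2462 nuclei held at least 1. Nearly all the remainder lay in neurons (12510 UMIs, 13%) and astrocytes (3105 UMIs, 3.22%), which were far more numerous, and OPCs held 572 UMIs (0.594%). Summed over the 8 genes, the mean over libraries was 12749 ± 3253 counts per 1000000 UMIs (CPM, the nuclei of a type summed in each library, SD, n = 10) in oligodendrocytes. The same sum was 244 ± 151 CPM in OPCs (n = 9; the library male 1 had 2 OPC nuclei and no sum was made from fewer than 10). In bulk sums of this kind fewer positive nuclei and less RNA per nucleus cannot be told apart, and the share of nuclei is given separately below.

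**Figure D1:**
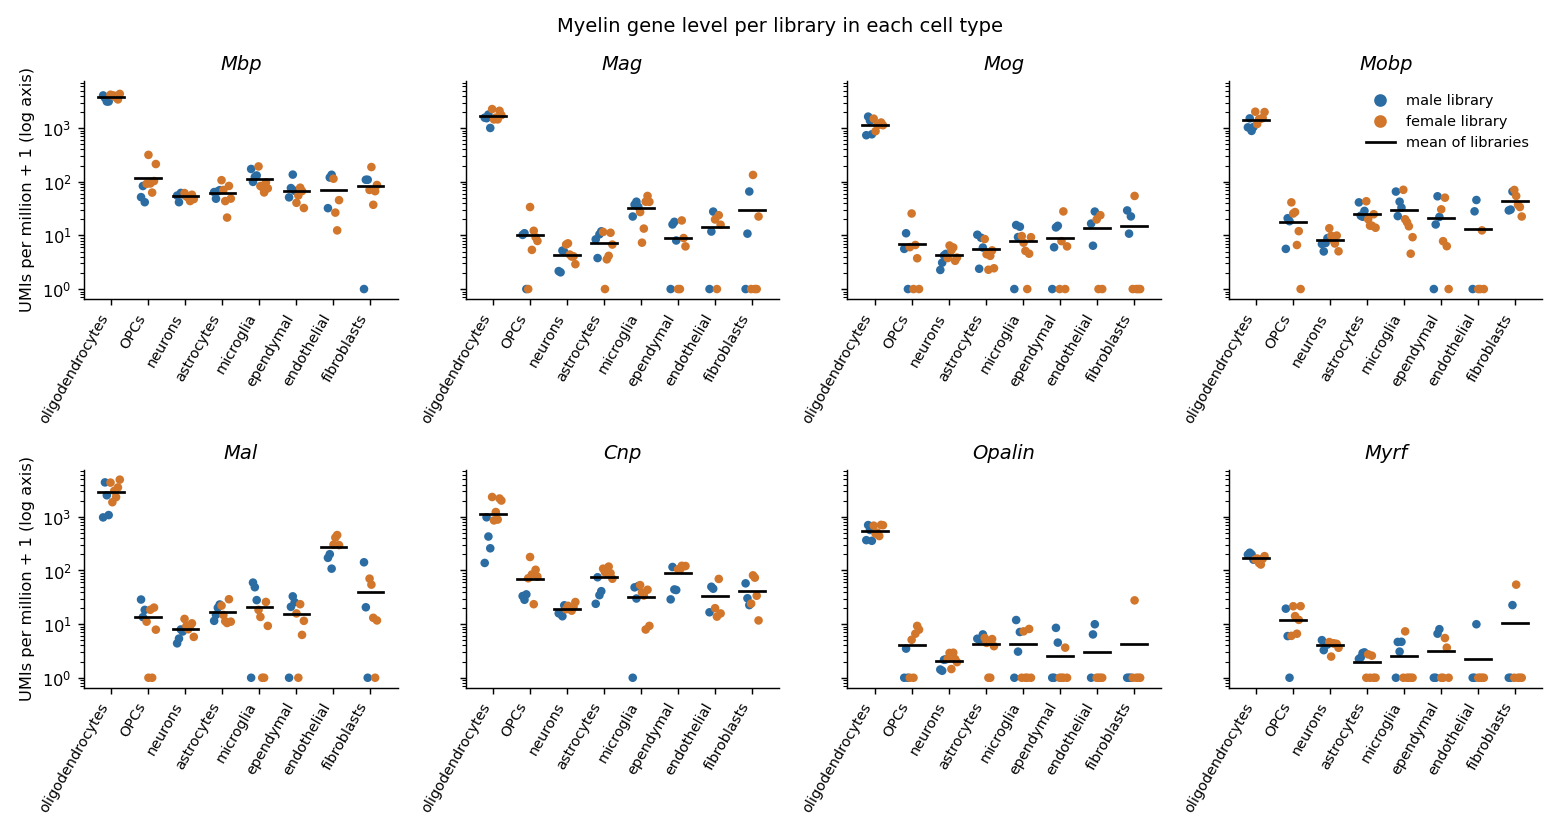
Level of each of the 8 genes in every library (points, blue male, orange female) and cell type, as CPM + 1 on a log axis, with the mean of the libraries as a black line. The lowest oligodendrocyte sum lies above the highest sum of every other type for each gene but Cnp, for which 1 OPC sum (177 CPM) lies above the lowest oligodendrocyte sum (137 CPM), and Mal in endothelial cells has a mean of 277 CPM. The share of all genes with such a separation was not counted.

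OPCs had lower levels of all 8 genes than oligodendrocytes, by 15.8-fold to 240-fold, and in each of the 9 libraries with both types. The comparison asks how far the myelin genes separate precursors from mature cells. Since the cell types had been assigned by clustering these same nuclei, with Mal as a marker gene, the values describe that assignment and its size. In edgeR's quasi-likelihood test with the library as a block, 5034 genes were tested and 25.6% of them were lower in OPCs, with a log2 fold change past 0.5 in size and an adjusted p below 0.05, while 23.2% were higher. The 8 genes all passed the filter on low counts through their level in oligodendrocytes.

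Mbp lay between 40.6 and 316 CPM in the OPC sums, with a median of 90.7, and between 3127 and 4341 CPM, with a median of 3868, in the oligodendrocyte sums. The groups did not overlap, and the fit gave a log2 fold change of -5.21 ± 0.24 (SE; edgeR, adjusted p = 1.2e-13), 37-fold. Mobp, the other basic protein, had 0 to 40.3 CPM in OPCs (median 17.4) and 886 to 2021 CPM (median 1480) in oligodendrocytes, a log2 fold change of -6.37 ± 0.26 (edgeR, adjusted p = 3.9e-14). Neither basic protein gene overlapped between the types, and the share of all genes tested without overlap was not counted.

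Among the surface proteins, Mag lay between 0 and 32.8 CPM in OPCs (median 8.26) and 1005 and 2262 CPM in oligodendrocytes (median 1567), a log2 fold change of -7.45 ± 0.29 (edgeR, adjusted p = 1.7e-14). Mog lay between 0 and 24.6 CPM (median 4.61) against 736 to 1637 CPM (median 1160), at -7.55 ± 0.30 (edgeR, adjusted p = 3.1e-14). Opalin lay between 0 and 8.26 CPM (median 2.49) against 356 to 706 CPM (median 537), at -7.41 ± 0.26 (edgeR, adjusted p = 1e-14). Mag, Mog and Opalin had no UMI in 2, 3 and 4 of the 9 OPC sums, and 21, 14 and 7 UMIs over all 9.

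Mal had the largest estimate of the 8, 240-fold, with 28 UMIs in all over the OPC sums. Its 95% interval (165 to 348) overlapped those of Mog (124 to 282), Mag (118 to 257) and Opalin (118 to 243). Mal had 0 to 27.7 CPM in OPCs (median 12.5) and 974 to 4930 CPM in oligodendrocytes (median 2778), a log2 fold change of -7.91 ± 0.28 (edgeR, adjusted p = 7.9e-15). Cnp and Myrf showed the smallest, 17.5-fold and 15.8-fold. Cnp lay between 22.5 and 177 CPM in OPCs (median 70.5) and 137 and 2340 CPM in oligodendrocytes (median 933), at -4.13 ± 0.26 (edgeR, adjusted p = 9.8e-12), so that the ranges overlapped, although OPCs were lower within each of the 9 libraries. Myrf lay between 0 and 20.6 CPM (median 11) against 128 to 213 CPM (median 165), at -3.99 ± 0.24 (edgeR, adjusted p = 6.1e-12). The ranges of Myrf and of Mal did not overlap, again without a share over all genes tested beside it.

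A test of the interaction, the OPC difference of the female against that of the male libraries, was passed by none of the 8 genes in edgeR, by 0.0596% of all genes tested (3 of 5034, and 304 at an unadjusted p under 0.05), and by none of the 8 at an unadjusted p under 0.05. The interaction estimates ran from -1.19 ± 0.65 (Mal) to 1.52 ± 1.15 (Opalin) on the log2 scale, and a difference between the groups of libraries of that order was not detectable here.

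Other genes of the sheath were lower in OPCs too, with exceptions, beside 25.6% lower over all genes tested. Of 20 further myelin and paranode proteins, all tested, 17 were lower in OPCs, none was higher and 3 were not called, with a median log2 fold change of -3.96 against -0.06 over all genes tested. The largest were Hapln2, a link protein of nodal matrix, at -7.98 ± 0.33 (edgeR, adjusted p = 3.8e-14), and Ermn, a cytoskeletal protein of late oligodendrocytes, at -7.82 ± 0.29 (edgeR, adjusted p = 1.5e-14). The smallest belonged to Omg, at -0.10 ± 0.16, and Cd9, a tetraspanin, at 0.24 ± 0.18, neither of which passed the test.

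Of 12 genes of myelin lipid synthesis, 9 were tested, and 7 of these were lower in OPCs and none higher (median -2.64), beside 25.6% lower over all genes tested. Aspa, which releases acetate from N-acetylaspartate, was at -7.35 ± 0.33 (edgeR, adjusted p = 8.6e-14) and the fatty acid elongase Elovl7 at -3.88 ± 0.20 (edgeR, adjusted p = 5.5e-13). Sqle, an enzyme of sterol synthesis, was at 0.46 ± 0.18 (edgeR, adjusted p = 0.036) and missed the threshold on fold change.

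Of 11 transcription factors of the lineage, 9 were tested, 4 being lower in OPCs, 2 higher and 3 not called, beside 25.6% lower and 23.2% higher over all genes tested, with a median of 0.03 against -0.06. St18, a zinc finger protein, was at -6.04 ± 0.37 (edgeR, adjusted p = 7.7e-12) and Nkx6-2, a homeodomain protein of mature oligodendrocytes, at -4.19 ± 0.26 (edgeR, adjusted p = 1.1e-11). Olig2, the lineage determinant, was higher in OPCs, at 1.82 ± 0.16 (edgeR, adjusted p = 1.7e-09), while Sox10, which is present throughout the lineage, and Tcf7l2 were at 0.03 ± 0.16 and 0.13 ± 0.16 and did not pass. Myrf, a transcription factor itself, had a log2 fold change of -3.99, past that of every factor of the list but St18 and Nkx6-2.

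The precursor lists moved the other way, beside 23.2% higher and 25.6% lower in OPCs over all genes tested. The paper named the OPCs by Pdgfra, and the types came from clustering these same nuclei. The values thus describe that assignment. All 11 tested of 12 OPC genes were higher in OPCs (median 5.07), from Bcan at 3.41 ± 0.23 (edgeR, adjusted p = 2.6e-11) and Tnr at 3.97 ± 0.39, both of the perineuronal matrix, to C1ql1 at 6.97 ± 0.36 and Pdgfra at 7.75 ± 0.33 (edgeR, adjusted p = 5.1e-14). Of 8 genes of the committed stage, 6 were tested, of which 5 were higher in OPCs, among them Neu4 at 5.59 ± 0.34, Gpr17 at 4.39 ± 0.34 (edgeR, adjusted p = 3.3e-10), Fyn at 1.02 ± 0.19 and Tns3 at 0.54 ± 0.13. Enpp6 alone was lower, at -2.79 ± 0.43 (edgeR, adjusted p = 9.9e-06), and Bmp4 did not pass the filter on low counts.

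Within the OPCs, many of the UMIs of the 8 genes lay in a few nuclei. Of 473 OPC nuclei, 210 held at least 1 such UMI, 15 at least 5 and 4 at least 10. Taken by a criterion that uses none of the 8 genes, at least 1 UMI of both Bmp4 and Enpp6 (chosen after the values were seen), 6 nuclei were found, in the libraries male 1, female 1, female 2, female 5 and, with 2, female 6. They held 44, 2, 102, 36, 19 and 9 UMIs of the 8 genes at 15179, 3465, 14984, 14523, 2860 and 1959 UMIs in all. None of the 6 had a Pdgfra UMI, against 445 of the other 467 OPC nuclei. All 6 had Gpr17 (90 UMIs in all), as did 295 of the other 467. The OPC gene Vcan was seen in all 6 and in 420 of the other 467, and Cspg4 in 2 and 378.

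These 6 nuclei carried some of the 8 genes and not others. Mbp gave 131 UMIs in them, 2473 CPM over the 6 together, against 73.4 CPM in the other OPCs and 3455 CPM over all oligodendrocytes. Cnp gave 55 UMIs (1038 CPM, against 45.9 and 872 CPM), Myrf 7 (132, against 8.05 and 172 CPM) and Mag 13 (245, against 5.21 and 1529 CPM). Mal and Mobp gave no UMI, Opalin 1 and Mog 5, all of the last in the female 2 nucleus, although the same genes had 2427, 1251, 515 and 1105 CPM in oligodendrocytes. A count of 0 allows up to 3 UMIs in these 6 nuclei. In the male 1 nucleus Cnp also gave none, beside 40 UMIs of Mbp. These are values of 6 nuclei, without a test. They held 45.8% of the Mbp, 54.2% of the Mag and 36.2% of the Cnp UMIs of all OPCs.

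OPCs were next set beside cell types outside the lineage, as UMIs per nucleus, since a UMI in such cells can come from free RNA picked up in the droplet. Over the 9 libraries OPCs held 1.11 ± 0.63 UMIs of the 8 genes per nucleus, between 0.404 and 2.65 with a median of 0.932. Astrocytes of the same libraries held 0.559 ± 0.146, microglia 0.655 ± 0.305 and neurons 0.953 ± 0.352. OPCs thus lay above astrocytes in 8 of 9 libraries (exact sign-flip permutation test, two-sided, adjusted p = 0.0422 over 27 tests) and above microglia in 8 of 9, which did not pass the correction (unadjusted p = 0.0352, adjusted p = 0.158, same exact test). They lay above neurons in 5 of 9 (adjusted p = 0.876, same exact test). Median depth was 3658 UMIs in OPCs, 3006 in astrocytes, 2168 in microglia and 11157 in neurons.

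Of single genes, Mbp was higher in OPCs than in astrocytes in 9 of 9 libraries, by 0.331 ± 0.357 UMIs per nucleus (exact sign-flip permutation test, p = 0.00391, the smallest that 9 libraries allow, adjusted p = 0.0422). Myrf was higher than in astrocytes in 8 of 9, with 0.0479 ± 0.0361 against 0.00295 ± 0.00299 per nucleus, and higher than in microglia in 8 of 9 (exact test, adjusted p = 0.0422 for both). Cnp was higher than in microglia in 8 of 9 (0.316 ± 0.214 against 0.0995 ± 0.058, exact test, adjusted p = 0.0422). No difference passed for Mag, Mog, Mobp, Mal or Opalin, and a level of these 5 genes above that of the 3 other types was not detectable here.

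Without the nuclei with Bmp4 and Enpp6 the sum in OPCs fell to 0.783 ± 0.22 per nucleus. The nucleus of this kind in male 1 had no part in the fall, as that library is not among the 9. No difference passed (exact sign-flip permutation test, lowest adjusted p = 0.0527). Mbp was still above astrocytes in 9 of 9 libraries, by 0.149 ± 0.0404 UMIs per nucleus, with the same unadjusted p of 0.00391 (exact test), the smallest that 9 libraries allow. It was below neurons in 9 of 9, by 0.196 ± 0.17 per nucleus (exact test, adjusted p = 0.0527 for both). Myrf was above astrocytes in 7 of 9.

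The share of nuclei with any UMI of the 8 genes depended on depth. With every nucleus thinned to 500 UMIs, 98.5 ± 0.728% of oligodendrocytes (n = 10 libraries) and 9.13 ± 2.36% of OPCs (n = 9) held one. The thinned share was 5.03 ± 0.736% in neurons, 8.63 ± 1.93% in astrocytes, 10.4 ± 3.63% in microglia, 12.9 ± 4.41% in ependymal cells (n = 9), 13.3 ± 6.31% in fibroblasts (n = 8) and 20 ± 5.79% in endothelial cells (n = 7). The OPC share lay among those of cells that do not make myelin. Unthinned, the shares were 99.9 ± 0.287% in oligodendrocytes, 45 ± 11.9% in OPCs and 55.3 ± 13.2% in neurons, and at medians of 2321, 3658 and 11157 UMIs these are no order of expression.

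**Figure D2:**
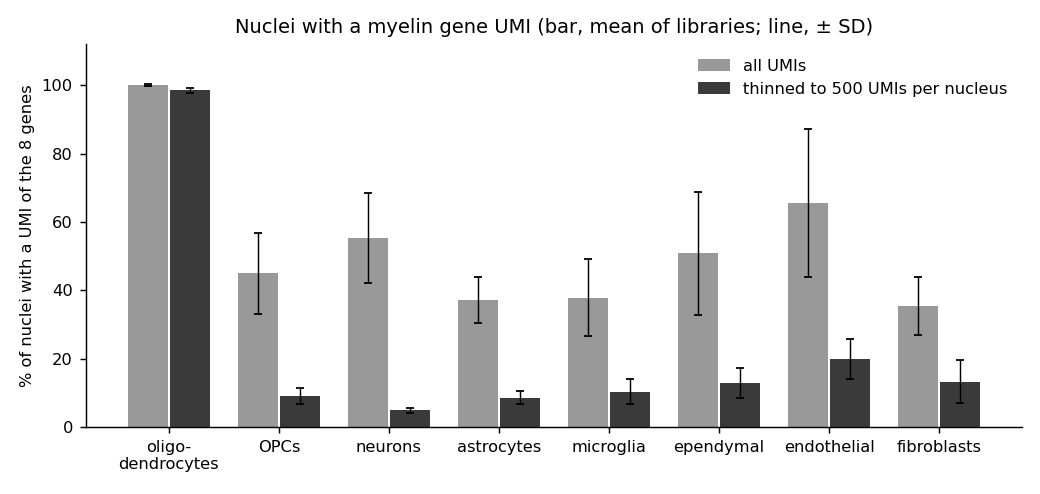
Percent of nuclei with at least 1 UMI of the 8 genes in each cell type, with all UMIs (grey) and with every nucleus thinned to 500 UMIs (black), as the mean of the libraries (bars) ± SD (lines). Neurons fall from 55.3% to 5.03% and OPCs from 45% to 9.13%, while oligodendrocytes go from 99.9% to 98.5%.

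Single genes differed in how well 1 UMI marked an oligodendrocyte. At 500 UMIs, Mbp was seen in 81.1 ± 3.46% of oligodendrocytes, Mal in 55.4 ± 13.9%, Mag in 53.8 ± 6.28% and Myrf in 8.17 ± 1.49%. In OPCs the same shares were 4.43 ± 1.76%, 1.01 ± 1.1%, 0.319 ± 0.274% and 0.492 ± 0.437%, and in astrocytes 2.87 ± 1.07%, 0.833 ± 0.273%, 0.331 ± 0.217% and 0.0609 ± 0.0578%. Mbp was the gene seen in most oligodendrocytes at this depth and also, of the 8, the one seen in most neurons, microglia and OPCs.

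Outside the lineage, levels were not alike between types. Each of the 6 types was compared with the mean of the other 5 in an edgeR fit over all sums with the library as a block, and these comparisons were added after the values were seen. The filter on low counts of this fit also took in the oligodendrocyte sums, where each of the 8 genes has its highest mean level. In endothelial cells, Mal had 107 to 456 CPM, with a median of 296 and a mean of 277 ± 127 (SD, n = 7 libraries), and was higher than in the other types by 3.75 ± 0.29 on the log2 scale (edgeR, adjusted p = 1.2e-18), in a comparison where 17.5% of 9842 genes were higher. The highest sum of the other types outside the lineage, 1 of fibroblasts, had 141 CPM, above the lowest endothelial sum and below the next. No other member was called in endothelial cells, in which Mbp had 68.4 ± 51.5 CPM and Opalin 2.05 ± 3.65 CPM. Mal made up 61.3% of the 274 UMIs of the 8 genes there (Wilson 95% interval 55.4 to 66.9%, counting error only), against 21.5 ± 6.19% in oligodendrocytes, and was seen in 12.4 ± 6.53% of endothelial nuclei thinned to 500 UMIs.

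Cnp was higher in ependymal cells, which line the ventricles, and in astrocytes. Ependymal cells had 27.9 to 121 CPM, 88.3 ± 38.7 on average (n = 9), higher than the other types by 1.33 ± 0.28 (edgeR, adjusted p = 4.2e-05, with 27.1% of genes higher). Astrocytes had 22.9 to 117 CPM, 73.2 ± 31.8 on average (n = 10), higher by 0.98 ± 0.23 (edgeR, adjusted p = 0.00017, with 23.5% of genes higher). The ranges of both overlapped that of OPCs, whose mean was 69.5 ± 49.3 CPM. Opalin was also called in astrocytes, at 0.95 ± 0.40 (edgeR, adjusted p = 0.039), although its level there was 3.33 ± 1.88 CPM. Its mean was 3.34 CPM in fibroblasts (1 UMI in all) and 3.25 CPM in microglia (12 UMIs). It was 2.05 CPM in endothelial cells (2 UMIs), 1.52 in ependymal cells (6 UMIs) and 1.09 in neurons (140 UMIs). On the CPM scale astrocytes thus did not stand apart from fibroblasts and microglia.

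In microglia, Mag had 6.32 to 53.4 CPM with a mean of 31.4 ± 14.6 (n = 10), higher than in the other types by 1.70 ± 0.32 (edgeR, adjusted p = 4.7e-06, with 21.7% of genes higher). Mbp was higher in microglia too, by 0.59 ± 0.20 (edgeR, adjusted p = 0.011). Fibroblasts, with 109 UMIs of the 8 genes in their 8 sums, had no member called.

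Neurons had the lowest levels on the CPM scale, 95.3 ± 13.3 CPM summed over the 8 genes (69.4 to 116 CPM), below every astrocyte sum. Mal (-1.86 ± 0.27), Mag (-1.70 ± 0.30), Mobp (-1.38 ± 0.26), Mog (-1.01 ± 0.32) and Cnp (-0.93 ± 0.25) were lower in neurons than in the other types (edgeR, adjusted p from 4.3e-09 to 0.0037, with 24.2% of genes lower), and Myrf was higher, at 0.73 ± 0.34 (edgeR, adjusted p = 0.044, with 36.2% of genes higher). This call on Myrf lies near the floor. Its mean was 3.03 CPM in neurons, against 0.98 in astrocytes (25 UMIs) and 1.57 in microglia (6 UMIs). Ependymal cells had 2.2 CPM (7 UMIs), endothelial cells 1.28 (1 UMI) and fibroblasts 9.38 (3 UMIs), the last above neurons. Mbp (-0.13 ± 0.18) and Opalin (-1.03 ± 0.52) were not called. The order turned with the scale. Per nucleus, at a median of 11157 UMIs against 3006 in astrocytes and 2168 in microglia, neurons held 1.04 ± 0.435 UMIs of the 8 genes, against 0.587 ± 0.164 in astrocytes and 0.679 ± 0.297 in microglia.

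The make-up of the UMIs of the 8 genes was then compared with that in oligodendrocytes of the same library. The profile of free RNA itself was not measured, and its part in these UMIs was not tested. The percents of the 8 genes add up to the whole in each sum. A larger percent of a gene therefore lowers those of others, and the tests of single genes are not independent of each other. Mbp made up 31.1 ± 7.44% of the UMIs of the 8 genes in oligodendrocytes and 54.9 ± 4.85% in neurons, higher in 10 of 10 libraries (exact sign-flip permutation test, two-sided, p = 0.00195, the smallest that 10 libraries allow, adjusted p = 0.0024 over 16 tests). Cnp took 8.01 ± 4.38% in oligodendrocytes, 19.4 ± 3.9% in neurons and 39 ± 16.8% in astrocytes, higher in 10 of 10 libraries for both (exact sign-flip permutation test, adjusted p = 0.0024). In the 4 libraries with at least 200 such UMIs in astrocytes Cnp averaged 23.4% there. Mag, Mog, Mal and Opalin took smaller percents in both neurons and astrocytes than in oligodendrocytes in 10 of 10 libraries (exact test, adjusted p = 0.0024 for each of the 8 differences), with Mal at 21.5 ± 6.19% in oligodendrocytes, 7.23 ± 1.89% in neurons and 8.33 ± 2.54% in astrocytes.

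Myrf and Mobp differed in pattern between neurons and astrocytes. Myrf took 1.42 ± 0.448% in oligodendrocytes, 3.22 ± 0.824% in neurons, higher in 9 of 10 libraries (exact test, adjusted p = 0.00446), and 0.565 ± 0.499% in astrocytes, lower in 10 of 10 (exact test, adjusted p = 0.0024). Mobp was smaller in neurons in 10 of 10 libraries (7.36 ± 1.71% against 11.2 ± 1.46%, exact test, adjusted p = 0.0024), and its 12.6 ± 5.12% in astrocytes did not differ detectably (exact test, adjusted p = 0.512). Neither did Mbp in astrocytes, at 32 ± 8.27% (exact test, adjusted p = 0.775). In OPCs, whose 9 sums held 528 such UMIs, the pooled values were as follows, and no test was made: Mbp took 46.6% (Wilson 95% interval 42.4 to 50.9%), Cnp 28.8% (25.1 to 32.8%) and Mal 5.3% (3.69 to 7.56%). These intervals cover counting error only and not the spread between nuclei. In the 467 OPC nuclei without UMIs of both Bmp4 and Enpp6, Mbp took 43.1%, Cnp 26.9% and Mal 7.78%.

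**Figure D3:**
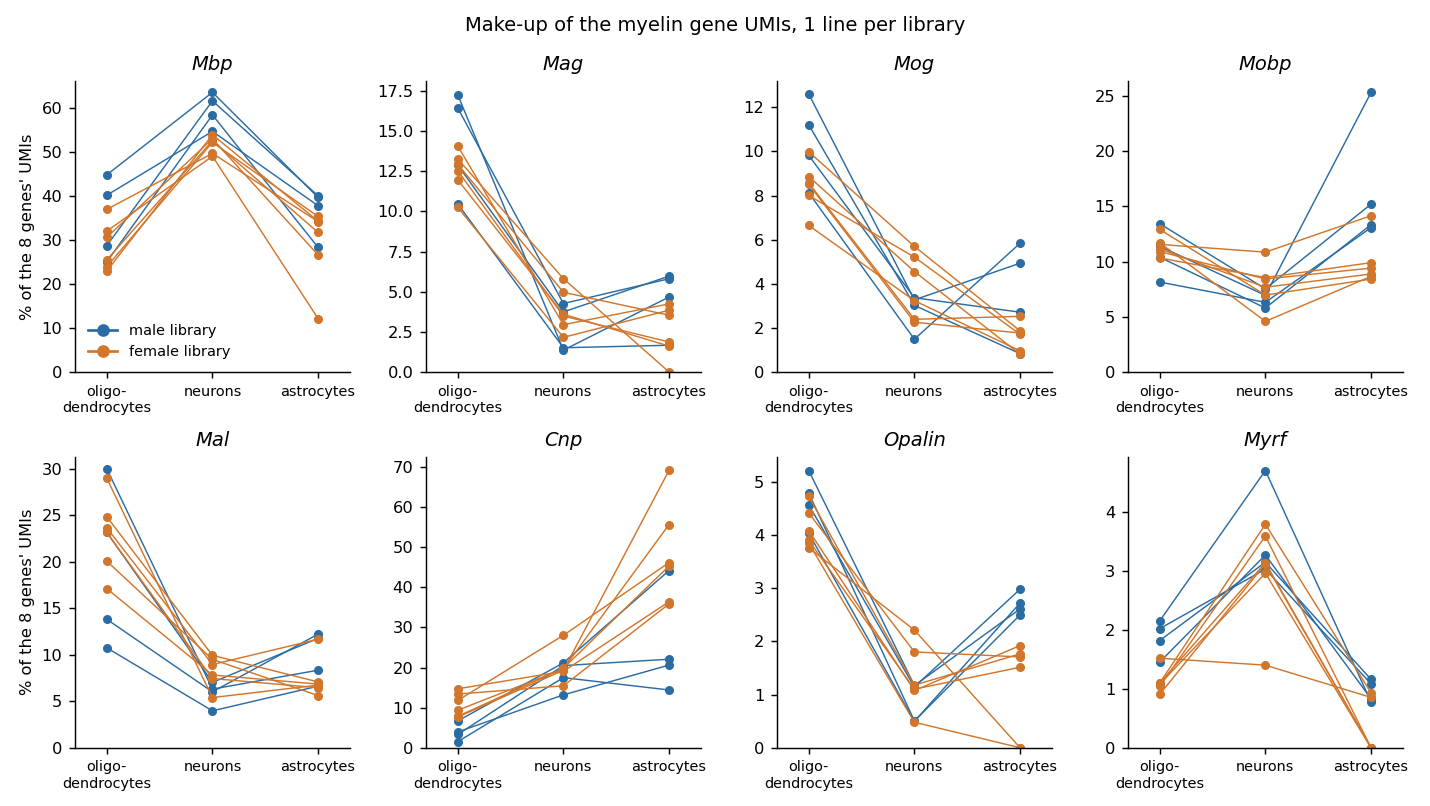
Percent of the UMIs of the 8 genes that each gene takes in oligodendrocytes, neurons and astrocytes, 1 line per library (blue male, orange female). Mbp is higher in neurons (54.9% against 31.1%) and Cnp highest in astrocytes (39%), while Mag, Mog, Mal and Opalin lie lower in both types in all 10 libraries.

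Whether libraries with more oligodendrocyte signal had more of these UMIs elsewhere was tested over the 10 libraries. The 8 genes' UMIs in oligodendrocytes amounted to 187 to 1473 CPM of all UMIs of a library. Against this, the summed CPM in neurons gave Pearson's r = 0.32 (permutation p = 0.37) and Spearman's rho = 0.16 (permutation p = 0.664), and r = -0.09 without the 2 libraries farthest from the median. Neurons held 126344945 UMIs, most of those of the series, so that both CPM values largely share a denominator. Astrocytes gave r = 0.68 (permutation p = 0.0714, adjusted p = 0.143 over the 2 relations), rho = 0.26 (permutation p = 0.471) and r = 0.59 without those 2 libraries. Within the 6 female libraries r was 0.55 in neurons (exact permutation p = 0.289) and 0.66 in astrocytes (exact permutation p = 0.186), and no value was computed for the 4 male libraries. No relation passed. Median depth per nucleus differed between male and female libraries, with 13580 and 6843 UMIs in neurons and 3223 and 2221 in astrocytes. Its part in values per nucleus was not tested. In UMIs per nucleus both pooled values were negative, -0.52 in neurons (permutation p = 0.0936) and -0.08 in astrocytes (permutation p = 0.886). Those within the 6 female libraries were positive, 0.21 in neurons (exact permutation p = 0.617) and 0.33 in astrocytes (exact permutation p = 0.5). Without the 2 libraries farthest from the median the pooled values per nucleus were -0.46 in neurons and 0.12 in astrocytes. After the same step only 4 female libraries were left. Their values per nucleus were 0.94 in neurons and 0.95 in astrocytes, and those on the CPM scale 0.46 and 0.77. No test was made on so few libraries.

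Between libraries, oligodendrocytes varied little in some of the genes and much in others. Mbp varied 1.39-fold from the lowest to the highest library and Myrf 1.66-fold, whereas Mal varied 5.06-fold and Cnp 17.1-fold. Cnp had 137, 978, 428 and 258 CPM in the libraries male 1 to 4, and in the 6 female libraries it lay between 856 and 2340 CPM with a median of 1618. The library male 2 lay within the female range and the other 3 male libraries below it.

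Female and male libraries were compared because theirs is the only grouping that the sample labels give. Cnp was higher in oligodendrocytes of the female libraries, with a mean of 1586 against 450 CPM and a log2 fold change of 1.86 ± 0.47 (edgeR, adjusted p = 0.015), where 8.99% of 6616 genes tested were higher and 3.82% lower at an adjusted p under 0.05. The other 7 genes did not pass, from Mobp at 0.59 ± 0.21 (edgeR, adjusted p = 0.085) and Mal at 0.63 ± 0.40 (edgeR, adjusted p = 0.34) to Myrf at -0.21 ± 0.17 (edgeR, adjusted p = 0.49). The call on Cnp was lost without the library male 4 (1.61; edgeR, adjusted p = 0.0592). Without male 2, Mobp (0.79; edgeR, adjusted p = 0.0127) and Mal (1.21; edgeR, adjusted p = 0.0233) were called as well. In female against male libraries, mean Cnp was also 93.6 against 42.6 CPM in astrocytes, 113 against 57.1 in ependymal cells and 88.5 against 31.5 in OPCs. It was 19.8 against 16 CPM in neurons and 43.8 against 35.8 in fibroblasts. Microglia (30.2 against 31.7 CPM) and endothelial cells (28.7 against 36.3 CPM) went the other way. These differences outside oligodendrocytes were not tested.

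The deposited annotation gave the name oligodendrocytes to 2 clusters, numbered 2 (2246 nuclei) and 16 (216 nuclei), and these differed in Cnp and Mal. Cluster 16 made up 2.7 to 7.95% of oligodendrocytes in male and 4.55 to 24.5% in female libraries. Without its nuclei the difference in Cnp between female and male libraries was 0.19 on the log2 scale (edgeR, adjusted p = 0.874), and Mobp and Mal were at 0.06 and -0.57 (edgeR, adjusted p = 0.941 and 0.508), a setting chosen after the values were seen. Clusters were set on the expression of these same nuclei, and cluster 16 is high in Cnp. Leaving it out removes nuclei rich in Cnp, so these values are a description. Within cluster 2 alone Cnp had 139, 637, 385 and 249 CPM in male 1 to 4 and 282 to 489 CPM in the female libraries, so that these groups overlapped.

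Both clusters could be compared in the 6 libraries with at least 10 nuclei of cluster 16. As clusters were set on the expression of the same nuclei, these values are a description without a test. Cnp had 1009 and 472 CPM in cluster 16 of male 3 and male 4, and 3794, 2815, 3837 and 3386 CPM in that of female 1, 3, 5 and 6, higher than in cluster 2 in 6 of 6 libraries and by 5.48-fold on average (mean log2 ratio 2.45 ± 1.04, SD). Mal had a mean of 5675 CPM in cluster 16 against 1495 in cluster 2, higher in 6 of 6 (log2 ratio 1.85 ± 0.64). Mbp had close means in both, 3616 against 3557 CPM (log2 ratio -0.02 ± 0.34).

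The other members lay between these. Mag was higher in cluster 16 in 6 of 6 libraries (0.53 ± 0.32), Opalin (0.89 ± 0.57) and Mog (0.35 ± 0.40) in 5 of 6, and Mobp (0.77 ± 0.85) and Myrf (0.30 ± 0.56) in 4 of 6. For Mobp the 4 were the female libraries, and both male libraries were lower in cluster 16. Genes with the largest ratio between the clusters were no myelin genes. Cavin3, a caveolar coat protein, led at 3.72, with Cryab, a small heat shock protein, at 3.45 and Fth1, the ferritin heavy chain, at 3.31, while Cnp was number 11 and Mal number 71 of 4471 genes. This ranking took the log2 ratio of CPM averaged over the libraries, a scale on which Cnp was at 2.76 and Mal at 1.92. It covered genes with a UMI in both groups of libraries and at least 50 CPM in either cluster. Mitochondrial genes, at 0 in male libraries, were thus left out. In the 4 female libraries nuclei of cluster 16 also had more UMIs than those of cluster 2. In male 3 and male 4 they had fewer (medians 2829 against 3229 and 1541 against 2293). The mean of the 6 library medians was 6424 against 2010. Cluster 16 also had a higher deposited mitochondrial percent (3.15 against 1.49%, 6 of 6) and a higher percent of ribosomal protein UMIs (1.64 against 0.837%, 6 of 6). The part of these in the difference was not tested.

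**Figure D4:**
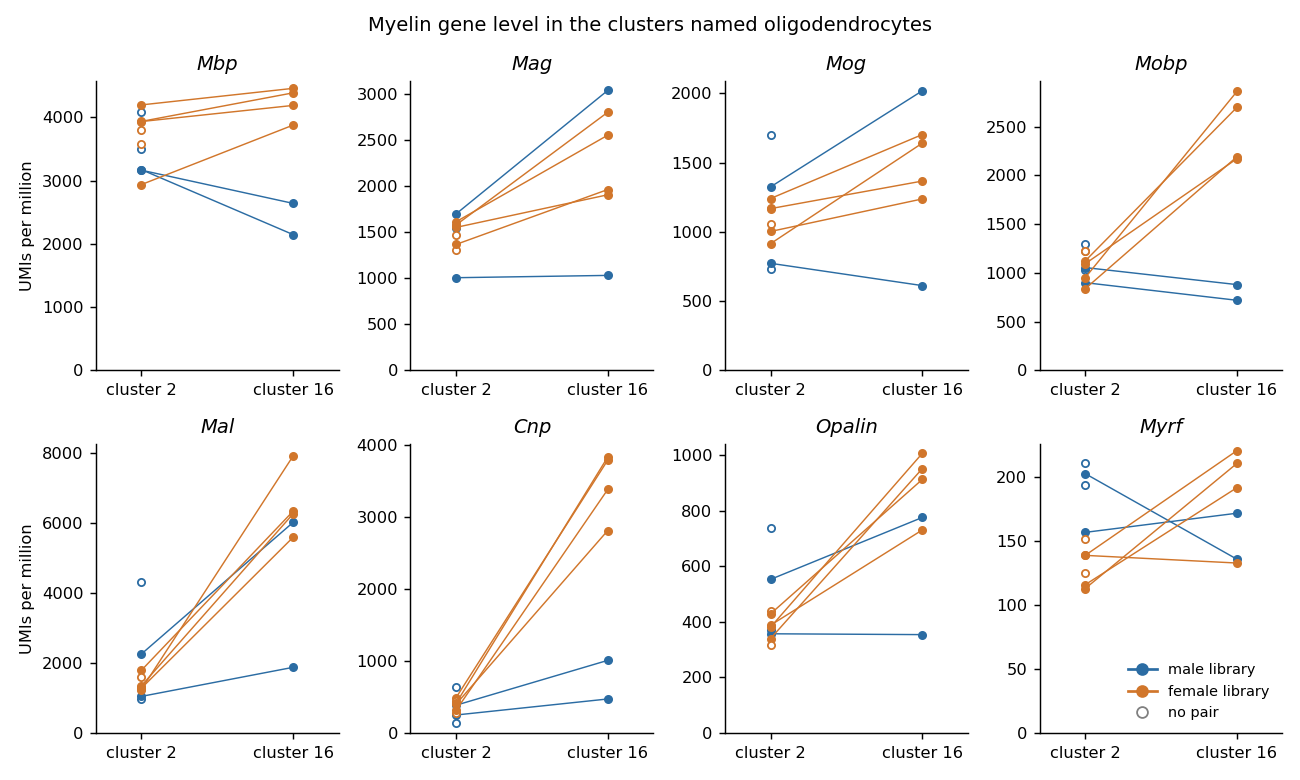
Level of each of the 8 genes, in CPM, in oligodendrocyte clusters 2 and 16 of each library (blue male, orange female), with lines joining the 6 libraries that have at least 10 nuclei in both and open circles for the other libraries. Cnp and Mal are higher in cluster 16 in 6 of 6 libraries, while the means of Mbp are 3616 and 3557 CPM.

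Over all 73 sums of a library and a cell type, the members followed each other to different degrees. The mean Pearson's r of a member's log2(CPM + 1) to the other 7 was highest for Opalin (0.829) and Mog (0.807) and lowest for Cnp (0.699) and Mal (0.670). Of 16769 genes, those with the highest mean r to the 8 were Gm44866 (0.842), Gm33594 (0.838), Tnni1 (0.837), Cyp2j12 (0.832) and Gm36855 (0.831). These correlations describe sums that share libraries and depth, and carry no test.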

How the data were processed

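Nuclei of the paraventricular thalamus and the regions around it were profiled by droplet single-nucleus RNA sequencing. The deposited matrix holds UMI counts per gene and nucleus, made by the authors with Cell Ranger against mm10. The submitters' processing notes name version 6.1.1, whereas the paper's methods name an earlier version. The authors removed nuclei with few genes or a high mitochondrial share, integrated the libraries and clustered. No separate treatment of doublets was made here. Cell types and clusters are the deposited annotation, and the mitochondrial percent per nucleus is a deposited value. Of the metadata columns, 21 were not used.

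UMIs were summed per library and cell type (at least 10 nuclei). Each library is a pool of mice and counts as 1 replicate. Sums were tested with edgeR 4.0.16 (R 4.3.3; TMM, filterByExpr, quasi-likelihood test, Benjamini-Hochberg), OPCs against oligodendrocytes with the library as a block (called at adjusted p under 0.05 and log2 fold change beyond 0.5), and female against male oligodendrocytes without a block (adjusted p under 0.05). Fits of the other cell types used both thresholds. Sign-flip tests were exact, and correlations over 10 libraries used 100000 permutations. Shares of nuclei are expected values after thinning each nucleus to 500 UMIs, and nuclei below that were left out (6 oligodendrocytes, 1 neuron, 2 astrocytes, 1 microglial, 12 ependymal and 2 endothelial). Intervals and the limit of 3 UMIs that a count of 0 allows cover counting error only. DESeq2 1.42.0 was an alternative. The fits were tested on simulated data.

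Members and gene lists were chosen with earlier results of these data known. Named genes were the 8 members, the 2 largest and 2 smallest differences of each list, lineage genes (Olig2, Sox10, Pdgfra, Bmp4, Enpp6, Gpr17), and the 5 genes most like the members among genes counted in both groups of libraries. A few genes that this rule names are not reported here. The tests of make-up and of UMIs per nucleus, the comparisons of clusters and of types outside the lineage, the interaction, and the nuclei with Bmp4 and Enpp6 were added after values were seen, and so were the leading genes of cluster 16.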

Additional observations from a re-analysis of the deposited data

Results flagged for a closer look

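In each cell type, a library far from the others in a member's level was looked for among the male and among the female libraries where at least 4 had a sum, in 115 groups. Found were 18, and most rest on few UMIs. A chance rate of 1 in 20 groups holds for independent, normally distributed values. Several flagged groups had 0 in every other library, and the sums share UMIs with the members. The count of 18 therefore cannot be set against that rate. The library female 2 was highest in OPCs for Mag (32.8 CPM, others 0 to 11.2) and Mog (24.6 CPM, others 0 to 5.62), and 1 nucleus with Bmp4 and Enpp6 held 7 of the 8 Mag and 5 of the 6 Mog UMIs. It was also highest among female fibroblasts, of which it had 18 nuclei, for the sum of the 8 genes (641 CPM, others 131 to 231), Mag (133 CPM), Mog (53.4 CPM), Myrf (53.4 CPM) and Opalin (26.7 CPM, 1 UMI), and in microglia for Myrf (6.32 CPM, 1 UMI).

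The library female 1 was highest for Mbp (192 CPM, others 62.2 to 96.1) and Mobp (69.8 CPM, others 3.56 to 19) in microglia and for Mobp in astrocytes (42.3 CPM, others 12.9 to 23.8). Female 4 was highest in ependymal cells for Mog (27 CPM, others 0 to 6.81) and the sum (319 CPM, others 170 to 209). Female 5 was highest in endothelial cells for Cnp (68.5 CPM, others 12.8 to 18.8) and Mobp (11.4 CPM, 1 UMI), and in ependymal cells for Opalin (2.64 CPM, 1 UMI). Among male libraries, male 4 was highest for Opalin in astrocytes (5.43 CPM, others 4.17 to 4.34), and male 1 lowest for the sum in microglia (258 CPM, others 292 to 295).

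Between the clusters named oligodendrocytes, 2 genes went opposite ways in the groups of libraries. The log2 ratio of cluster 16 to cluster 2 for Mobp was 1.31 on average in the 4 female libraries (0.99 to 1.59) and -0.29 in the 2 male ones (-0.32 to -0.26), and for Mbp it was 0.18 (0.09 to 0.40) and -0.41 (-0.56 to -0.26). The difference between the groups was not tested.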

How the results depend on the processing

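All 8 genes were lower in OPCs than in oligodendrocytes and called under each of 22 alternatives, with log2 fold changes between -4.59 and -2.66 for Cnp, -8.66 and -6.98 for Opalin and -5.84 and -4.92 for Mbp, and a highest adjusted p of 1.52e-05. Counts over all genes moved more. Genes higher in OPCs were 2357 with DESeq2, 2522 with no filter and 2220 with all cell types in the fit, and genes lower were 2773 with no filter. Leaving out 1 library gave 1044 to 1288 higher and 1168 to 1495 lower. Without the library block, 1091 were higher and 1090 lower.

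Genes higher in oligodendrocytes of female libraries were 1309 with no filter, 359 among genes counted in both groups and 172 without cluster 16, and genes lower were 750 with DESeq2, 1316 with no filter, 113 among genes counted in both groups and 157 without cluster 16. Leaving out 1 library gave 291 to 926 higher (926 without male 2, 291 without male 4, 327 without female 1, 303 without female 5) and 216 to 368 lower. With a replicate block, 172 were higher and 184 lower, and Cnp was at 1.83 (edgeR, adjusted p = 0.168). The numbers do not pair the samples, as same-numbered libraries had correlations of -0.19, -0.35, -0.13 and 0.01. Mog, between -0.08 and 0.38 with 1 library left out, turned to -0.06 without male 1, -0.08 without male 4 and -0.01 without cluster 16, and without cluster 16 Mal turned to -0.57 and Opalin to -0.35. The cause was not tested.

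Thinned to 1000 UMIs, the percent of nuclei with a UMI of the 8 genes was 99.8 in oligodendrocytes, 15.7 in OPCs, 9.57 in neurons, 15.9 in astrocytes, 18.4 in microglia, 20.6 in ependymal and 33.8 in endothelial cells. With no thinning it was 99.9, 45, 55.3, 37.2, 37.9, 50.8 and 65.6 in the same order, and 35.4 in fibroblasts. Per nucleus, the correlations over all 10 libraries turned to -0.52 in neurons and -0.08 in astrocytes, and those within the 6 female libraries stayed positive (0.21 and 0.33). The depth of fibroblast and endothelial sums limits most of the 8 genes there to a few UMIs per sum. In endothelial cells Mal had 168 and Mbp 51 UMIs over the 7 sums.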
